A study of Homo sapiens with 41 samples.

Results

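T98G is an established human glioblastoma line whose cells stop dividing when serum is withdrawn and start again when it is returned. Every culture of the series was starved of serum for 72 h and then given medium with 20% fetal calf serum, and RNA from 1 dish was sequenced, after removal of rRNA, every 10 min at 41 time points. The values described here come from 8 of those 41 libraries, chosen by their time alone: the 4 collected at 150, 160, 170 and 180 min after serum were set against the 4 collected at 110, 120, 130 and 140 min. All 8 share the line, the starvation and the serum, and differ in the time of collection. No time point was repeated, so the 4 neighbouring times of a window stand in for replicates. A p-value therefore measures a difference against the spread over those neighbouring times of the same course, which holds both the variation between cultures and any drift of the gene within the window. The deposited counts of the 8 libraries summed to between 29944111 (180 min) and 59703845 (150 min).

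Serum restores growth factors and lipids that act on receptors at the cell surface. Genes for transcription factors respond first and mostly briefly, because their mRNAs are short-lived and their products include inhibitors of the same signals. Genes for secreted proteins, the cytoskeleton, the matrix and the machinery of growth follow over the next hours. In the interval described here some genes of the first wave had fallen and others were still falling. A level is given as the normalized count, the deposited read count divided by the size factor of its library. Of 12 glial and mesenchymal markers some were high in every library and others low. VIM lay between 43102 and 49547 normalized counts, CD44 between 19142 and 24123 and TNC between 17211 and 28262. SOX9 lay between 1099 and 1460 and CHI3L1 between 220 and 300. NES did not pass 60.6, OLIG2 36.97, ALDH1L1 2.81 and SOX2 0.937. The astroglial markers GFAP and S100B did not pass 3.39 and AQP4 was at 0. Of 14 markers of blood, epithelial, endothelial, neuronal, muscle and liver cells, 4 were at 0 in the 8 libraries and the summed level of the 14 lay between 1821 and 1839 in the earlier window and between 1759 and 1951 in the later one, nearly all of it from CD68, a lysosomal protein that many cells make. The summed level of 12 glial and mesenchymal markers lay between 82682 and 89008 in the earlier window and between 92861 and 101642 in the later one, and TNC was the 1 of them called.

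Between the windows, 173 of 21629 genes tested were higher at 150 to 180 min and 111 were lower (edgeR quasi-likelihood test, Benjamini-Hochberg adjusted p below 0.01), which is 0.800% and 0.513% of the genes tested. They included 151 and 103 of 14056 protein-coding genes, 6 and 4 of 3508 lncRNAs, and 16 and 4 of 4065 genes of other kinds, mostly pseudogenes. The changes were modest. The median rise was 1.28-fold and the median fall 1.26-fold, and 17 genes rose and 11 fell by at least 1.5-fold. For each of these 284 genes the 4 later values lay wholly above or wholly below the 4 earlier ones, which was so in the upward direction for 1323 of all genes (6.12%) and in the downward direction for 1534 (7.09%). In RNA from a whole culture, fewer cells that express a gene and less RNA per cell cannot be told apart.

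The counts of called genes turned on single libraries. Without the 120 min library, or without the 170 min library, 9 genes were higher and 3 lower, and 12 of the 284 calls remained. Without the 130, 160 or 180 min library 25, 92 and 17 of them remained, without the 110 min library 129, without the 150 min library 257, and without the 140 min library all 284 among 632 higher and 380 lower. A total of 9 genes stayed higher and 3 stayed lower whichever library was left out: SLC7A5, COL5A1, ZFP36L1, MYBBP1A, MSC, PIEZO1, SPHK1, ZNF469 and the pseudogene EIF4A1P10, and ST8SIA1, SETDB2 and FAM13A. A gene that climbs or drops steeply within each window has a large spread in this test, so a second fit, chosen after the values were seen, added a straight line in time that both windows shared and tested the same difference between the window means. With the drift taken out of the spread in this way, 1306 genes were higher (6.04% of those tested) and 927 lower (4.29%), among them all 284. The drift stays in the difference that this fit tests, so a gene on a straight slope without a jump can pass it. The words "with the drift taken out" have this meaning throughout. For genes that changed steeply the adjusted p of both fits is given.

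The protein-coding genes with the largest rises among those with a mean of at least 100 normalized counts were KLHL29, CCL7, EFNB2, PTHLH, UCN2, FAM86B1, LTBP2, ARHGAP22, ZC3H8 and COL27A1. KLHL29, a member of the kelch-like family (chromosome 2, 23385179 to 23708611 on GRCh38), stood at 101, 83.9, 104 and 105 normalized counts at 110, 120, 130 and 140 min and at 139, 159, 208 and 225 at 150, 160, 170 and 180 min, a log2 change of 0.87 (SE 0.15, adjusted p = 0.0047). All of its earlier values lay within a narrow range and the later ones climbed from library to library. CCL7, a chemokine that attracts monocytes, had 88.3, 64.4, 95.6 and 122 and then 142, 164, 174 and 165, a change of 0.80 (SE 0.15, adjusted p = 0.0069). EFNB2, the membrane-bound ligand ephrin-B2, had 225, 211, 205 and 263 and then 307, 372, 405 and 468, a change of 0.76 (SE 0.12, adjusted p = 0.0052). Its lowest later value was above its highest earlier one, which was the 140 min library.

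Several of the other large rises encode secreted peptides and matrix proteins. PTHLH, the parathyroid hormone-related peptide, went from 218 ± 43.3 to 358 ± 37.03 (SD, n = 4 time points in each window), a log2 change of 0.70 (SE 0.12, adjusted p = 0.0069). UCN2, a peptide of the corticotropin-releasing hormone family, went from 148 ± 14.2 to 232 ± 18.6, a change of 0.64 (SE 0.09, adjusted p = 0.0019). LTBP2, an extracellular protein of the latent TGF-beta binding family, had 123, 132, 143 and 133 at 110 to 140 min and 189, 205, 226 and 207 at 150 to 180 min, a change of 0.63 (SE 0.09, adjusted p = 0.0019). COL27A1, a fibrillar collagen, went from 719 ± 95.02 to 1074 ± 96.1, a change of 0.57 (SE 0.09, adjusted p = 0.0056). ARHGAP22, an inhibitor of Rac signalling, changed by 0.58 (SE 0.09) and ZC3H8, a zinc finger protein that acts in small nuclear RNA transcription, by 0.58 (SE 0.10). FAM86B1 belongs to a family of near-identical copies, and reads that map to several copies were counted for each, so its change of 0.64 (SE 0.10) cannot be assigned to 1 copy. Under 100 normalized counts and so outside the rule that chose these 10, TNFSF15, a cytokine of the tumour necrosis factor family named here after its values were seen, had 14.7, 17.8, 33.2 and 37.5 and then 57.7, 48.1, 77.5 and 67.1, a change of 1.26 (SE 0.24, adjusted p = 0.0095).

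The largest falls included those of CCNG2, IRF2, PARD6B, ZFP14, ZBTB7B, UBALD2, YPEL2 and JMY. CCNG2, an atypical cyclin made in arrested cells (chromosome 4, 77157207 to 77433388), had 360.1, 329, 335 and 274 normalized counts at 110 to 140 min and 224, 189.5, 169 and 147 at 150 to 180 min, a log2 change of −0.80 (SE 0.11, adjusted p = 0.002). The fall ran through both windows, and the highest later value was below the lowest earlier one. IRF2, a repressor of interferon-responsive genes, had 413, 325, 330.2 and 281 and then 224, 201, 194 and 162, a change of −0.76 (SE 0.11, adjusted p = 0.0029). PARD6B, a scaffold of the cell polarity complex, went from 519.7 ± 64.1 to 316 ± 48.4, a change of −0.70 (SE 0.11, adjusted p = 0.0057). The zinc finger genes ZFP14 and ZBTB7B changed by −0.68 (SE 0.11) and −0.60 (SE 0.11). JMY, a cofactor of p300 that also nucleates actin, changed by −0.56 (SE 0.10) and UBALD2 by −0.60 (SE 0.12).

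**Figure D1:**
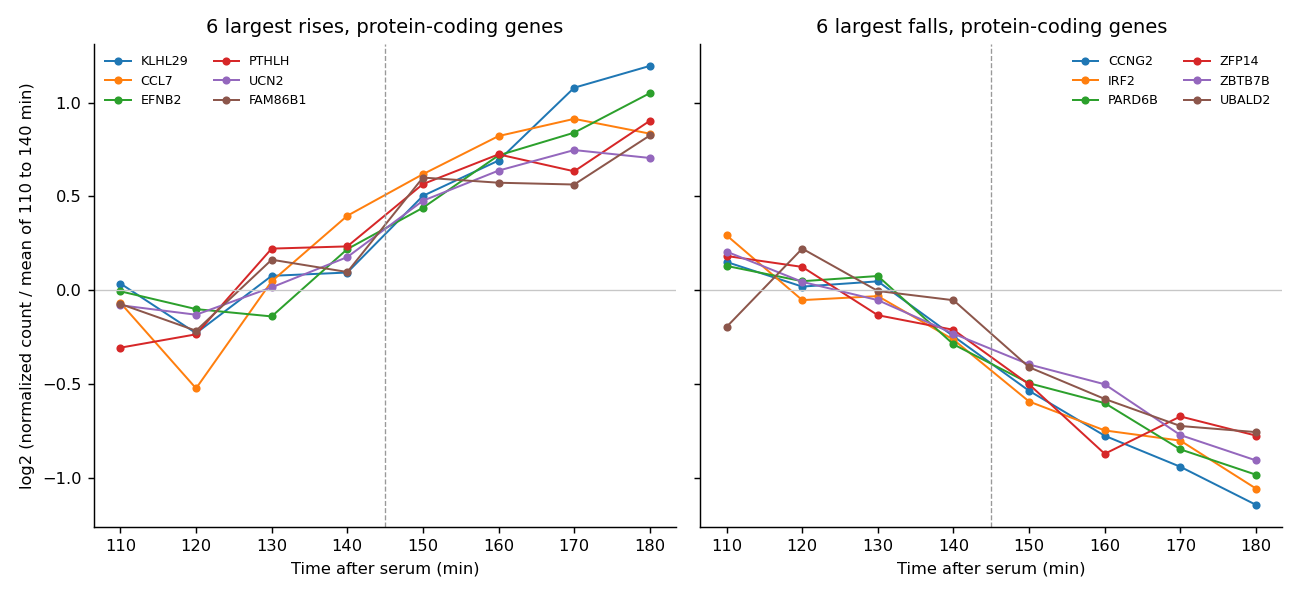
Each line is 1 gene, for the 6 largest rises and the 6 largest falls, drawn as the log2 of its normalized count in a library over its own mean at 110 to 140 min, against the time of the library in minutes. The dashed line parts the windows. At 150 min and later each rising gene lies above all of its own earlier points and each falling gene below all of its own.

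The rising genes had mostly been climbing before. Relative to the mean at 110 to 140 min their median log2 value was −0.68 at 0 and 10 min and −0.30 at 80 to 100 min, and 158 of the 173 stood above their start by 110 to 140 min, 57 of them at least 2-fold. Over the windows up to 100 min, 137 of the 173 rising genes (79.2%) and 99 of the 111 falling ones (89.2%) had stayed within 2-fold of their mean at 0 and 10 min, as had 87.3% of the genes tested. A further 33 rising genes (19.1%) and 11 falling genes (9.91%) had been raised at least 2-fold and had not come down, against 6.26% of the genes tested. The direction mostly continued after 180 min. Relative to the mean at 110 to 140 min, the median log2 value of the rising genes was 0.36 at 150 to 180 min, 0.64 at 240 to 280 min and 0.73 at 350 to 400 min. For the falling genes these medians were −0.34, −0.79 and −1.12. By 350 to 400 min, 135 of the 173 stood above their level at 150 to 180 min and 101 of the 111 below theirs. These counts, and those of genes above their start, have no share over all genes tested beside them and describe the called genes alone.

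Protein-coding genes that rose had a median transcript GC content of 55.5% and those that fell one of 41.8%, against 48.6% over the 14056 tested. With the drift taken out, the medians of the 1122 rising and 853 falling protein-coding genes were 46.6% and 46.4%. GC content also differed in its weight between libraries. The 25% of protein-coding genes with the least GC stood, relative to the 25% with the most, at −0.14, −0.03, 0.14 and 0.16 on the log2 scale at 110, 120, 130 and 140 min and at −0.04, 0.0010, 0.12 and 0.10 at 150, 160, 170 and 180 min. This GC value thus rose through the earlier window and up to 170 min in the later one, while its means, 0.03 ± 0.14 and 0.04 ± 0.08, differed by less than the spread between libraries. With the GC value of each library as a covariate, an alternative added after the values were seen, 1159 genes were higher and 782 lower, and 281 of the 284 calls remained. The median gene length was 39.2 kb for the rising and 75.4 kb for the falling protein-coding genes, against 33.6 kb over all tested.

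Ribosome biogenesis factors, the proteins that make, process and assemble ribosomal RNA in the nucleolus, had the most calls of any list by number. The lists differed in size. Of 40 tested, 9 passed the test upward and none downward, all 40 had a log2 change above 0, and the list's median was 0.27, against −0.0013 over all genes tested. With the drift taken out 36 of the 40 were higher and none lower. The counts of this and each later list are to be set beside the shares over all genes tested. These were 0.800% higher and 0.513% lower in the first test, and 6.04% and 4.29% with the drift taken out. NOP2, an rRNA methyltransferase, had 1138, 1189, 1202 and 1362 normalized counts at 110 to 140 min and 1569, 1535, 1692 and 1756 at 150 to 180 min, a change of 0.42 (SE 0.06, adjusted p = 0.0018). RRP12, which acts in the export of both ribosomal subunits, changed by 0.37 (SE 0.05), RRP9, a component of the U3 particle, by 0.37 (SE 0.06), and BOP1, which processes rRNA of the large subunit, by 0.36 (SE 0.06). The other 5 that passed were RRS1, MYBBP1A, PPAN, NOP14 and POLR1A, the largest subunit of RNA polymerase I. PPAN shares its exons with the read-through gene PPAN-P2RY11, which rose as well. DDX21, an RNA helicase of the nucleolus, went from 6840.0 ± 1166 to 9015 ± 999, with groups that overlapped at the 140 and 150 min libraries and a change of 0.40 (SE 0.14, adjusted p = 0.17, and 6.5e-12 with the drift taken out). The median GC content of the 40 was 48.2%.

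Other genes of protein synthesis and growth moved the same way in smaller number. Of 27 tested genes of the ATF4 programme, which supplies amino acids when they run short, 3 rose and 1 fell (median log2 change 0.16). SLC7A5, the light chain of the LAT1 transporter of large neutral amino acids, had 2379, 2468, 2279 and 2469 and then 2909, 3064, 3085 and 3351, a change of 0.37 (SE 0.05, adjusted p = 0.00083) that kept its call without any 1 library. PSAT1, an enzyme of serine synthesis, changed by 0.36 (SE 0.07) and ATF4 itself by 0.17 (SE 0.03). SLC38A2, the SNAT2 transporter of neutral amino acids, went the other way, from 51493 ± 1742 to 44120.2 ± 2039.8, a change of −0.22 (SE 0.04, adjusted p = 0.0041). The largest changes of this list were not called, and those genes climbed steeply within the windows. DDIT4, an inhibitor of mTORC1 named here after its values were seen, had 320.5, 303, 312 and 488 and then 599, 764, 1076 and 1187, a change of 1.33 (SE 0.29, adjusted p = 0.051, and 0.00012 with the drift taken out). CHAC1, which degrades glutathione, had 181, 147, 176 and 265 and then 331, 367, 399 and 495, a change of 1.03 (SE 0.19, adjusted p = 0.023, and 2.0e-09 with the drift taken out). SESN2, another inhibitor of mTORC1, had a log2 change of 1.05 (SE 0.28, adjusted p = 0.082, and 1.6e-12 with the drift taken out). All 3 had groups that did not overlap. With the drift taken out, 13 of the list were higher and 2 lower.

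Of 24 translation initiation factors, EIF1, which guides the choice of start codon, and EIF4A1, the helicase that unwinds mRNA leaders, rose by 0.24 (SE 0.04) and 0.22 (SE 0.04) on the log2 scale, none fell, and the list's median was 0.11. Taking out the drift left 14 higher. Of 24 genes of nucleotide and polyamine synthesis, CTPS1, which makes CTP, rose from 5643 ± 427 to 6936 ± 332, a change of 0.30 (SE 0.05), and none fell (median 0.12). Among 19 genes of the CCT chaperonin, which folds tubulin and actin, and of tubulins, TUBB6 and TUBB2A rose by 0.29 (SE 0.05) and 0.21 (SE 0.04) (median 0.11). SRSF7 was the 1 member called of 20 SR splicing factors and their kinases, with 0.29 (SE 0.05).

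Genes of the matrix and of adhesion to it had the next most. Of 24 tested, 5 were higher and 0 lower, with a median log2 change of 0.23, and with the drift taken out 15 were higher and 1 lower. ITGA5, the alpha subunit of the fibronectin receptor, had 2953, 2859, 2988 and 3409 and then 3919, 4288, 4686 and 4862, a change of 0.54 (SE 0.07, adjusted p = 0.0038). Each value from 130 min on was above the one before it, and all later values lay above the 140 min value, the highest of the earlier ones. COL4A2, a chain of basement membrane collagen, changed by 0.50 (SE 0.07), COL5A1, a fibrillar collagen chain, by 0.38 (SE 0.04), and LOXL2, which crosslinks collagen, by 0.26 (SE 0.04). TNC, the matrix glycoprotein tenascin-C, went from 18274 ± 1372 to 25537 ± 2514, a change of 0.48 (SE 0.08, adjusted p = 0.0097). TGFBI, a matrix protein that the study examines, had 76595, 79189, 80192 and 93923 and then 94017, 101629, 102807 and 102028, a change of 0.28 (SE 0.06, adjusted p = 0.015, and 1.5e-07 with the drift taken out).

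Of 30 cytoskeletal targets of SRF and its MRTF coactivators, TAGLN, ZYX, ACTN4 and MYH9 rose, by 0.41 (SE 0.07), 0.31 (SE 0.05), 0.21 (SE 0.04) and 0.21 (SE 0.04), and none fell. TAGLN and ACTN4 encode proteins that bind actin filaments, ZYX a protein of focal adhesions and MYH9 the heavy chain of a non-muscle myosin. The list's median was 0.08, and 27 of its 30 members had a change above 0. SRF itself had a change of −0.06 (SE 0.04, adjusted p = 0.49), and the cytoskeletal genes DSTN and TPM4, which the study also examines, of 0.02 (SE 0.04, adjusted p = 0.76) and 0.08 (SE 0.04, adjusted p = 0.26). Its calcium channel gene CACNA1C had −0.0025 (SE 0.06, adjusted p = 0.99). MRTFA, the coactivator, was called higher with 0.48 (SE 0.09), named here after its values were seen. Of 24 YAP and TEAD targets, 1 passed, GADD45A with 0.23 (SE 0.04). CCN2, the target that the study follows, had 32023, 33597, 32029 and 29567 and then 28606, 29832, 25769 and 25883, a change of −0.21 (SE 0.05, adjusted p = 0.025, and 2.9e-05 with the drift taken out).

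The list of inhibitors of TGF-beta and BMP signalling, which also held LTBP2 and the target gene ID1, split. Of 17 tested, PMEPA1, LTBP2 and SMURF1 rose and none fell, yet the list's median was −0.19. PMEPA1, which takes SMAD proteins out of the pathway, had 3289.6, 3428, 3719 and 4040.2 and then 4600.3, 4940.1, 5139 and 5321, a change of 0.46 (SE 0.06, adjusted p = 0.0022). SMURF1, a ubiquitin ligase for SMADs, changed by 0.22 (SE 0.04). The ID genes, which BMP signals switch on and whose products block bHLH factors, had changes below 0 without passing the test. ID1 had 27268, 25855, 22103 and 15937 and then 15596, 12734, 9273 and 8429.6, a change of −0.98 (SE 0.26, adjusted p = 0.092, and 0.00038 with the drift taken out), and ID2 one of −0.91 (SE 0.23, adjusted p = 0.074, and 7.8e-07 with the drift taken out). In neither did the groups overlap, and in both each library was lower than the one before it. TGIF1, a SMAD corepressor that the study examines, had 1243, 1119, 1028 and 817 and then 808, 796, 731 and 838, a change of −0.41 (SE 0.12, adjusted p = 0.076, and 0.012 with the drift taken out). Of the list, 5 were higher and 7 lower with the drift taken out.

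The highest median of any list was that of the NF-kappaB targets, 0.54 over 17 genes tested, although none of them passed the test. At an adjusted p below 0.05, 6 passed, all upward. The counts of all genes tested at that limit stand in the last section. NF-kappaB is the transcription factor of inflammatory signals, and its targets include its own inhibitors. Of the 17, 16 had a log2 change above 0, in 11 all later values lay above all earlier ones, and with the drift taken out 14 were higher and none lower. CXCL8, a chemokine for neutrophils named here with the next genes after their values were seen, had 2680.4, 2730.3, 3950.5 and 6096 normalized counts at 110 to 140 min and 6767, 7470.2, 12189.8 and 13653 at 150 to 180 min. That is a change of 1.37 (SE 0.38, adjusted p = 0.099, and 0.0012 with the drift taken out). TNFAIP3, the inhibitor A20, had 859, 842, 1043 and 1388 and then 1599, 1672, 2564 and 2558, a change of 1.01 (SE 0.25, adjusted p = 0.074, and 0.0014 with the drift taken out). ICAM1, an adhesion receptor for leukocytes, had 27.2, 38.98, 41.3 and 44.05 and then 52.8, 63.5, 103 and 102, a change of 1.02 (SE 0.24, adjusted p = 0.027, and 1.6e-06 with the drift taken out). In all 3 the 160 and 170 min libraries stood further apart than the 140 and 150 min libraries, so the steepest part of the rise fell inside the later window. IL6 had a log2 change of 0.68 (SE 0.19, adjusted p = 0.1, and 0.0047 with the drift taken out) and CCL2, a chemokine for monocytes, one of 0.59 (SE 0.16, adjusted p = 0.089, and 0.0014 with the drift taken out). NFKBIA, which holds NF-kappaB in the cytoplasm, had a log2 change of 0.24 (SE 0.06, adjusted p = 0.029, and 1.3e-06 with the drift taken out).

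Of 29 secreted growth factors and cytokines, 3 rose, 0 fell and the median change was 0.37. PDGFB, a chain of platelet-derived growth factor, had 301, 265, 306 and 333 and then 377, 402, 442 and 456, a change of 0.47 (SE 0.08, adjusted p = 0.0041). LIF and CLCF1, both cytokines of the IL6 family, changed by 0.37 (SE 0.07) and 0.40 (SE 0.07). The counts were 16 and 1 with the drift taken out. None of 21 genes of plasminogen activation and matrix proteases passed, and with the drift taken out 7 were higher and 1 lower. In MMP3, the protease stromelysin-1, the groups overlapped and the change was 0.70 (SE 0.23, adjusted p = 0.14, and 1.9e-07 with the drift taken out). AKAP12, a scaffold for protein kinase A, had 379, 415, 578 and 723 and then 875, 1044, 1196 and 1352, a change of 1.08 (SE 0.24, adjusted p = 0.057, and 1.0e-15 with the drift taken out).

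**Figure D2:**
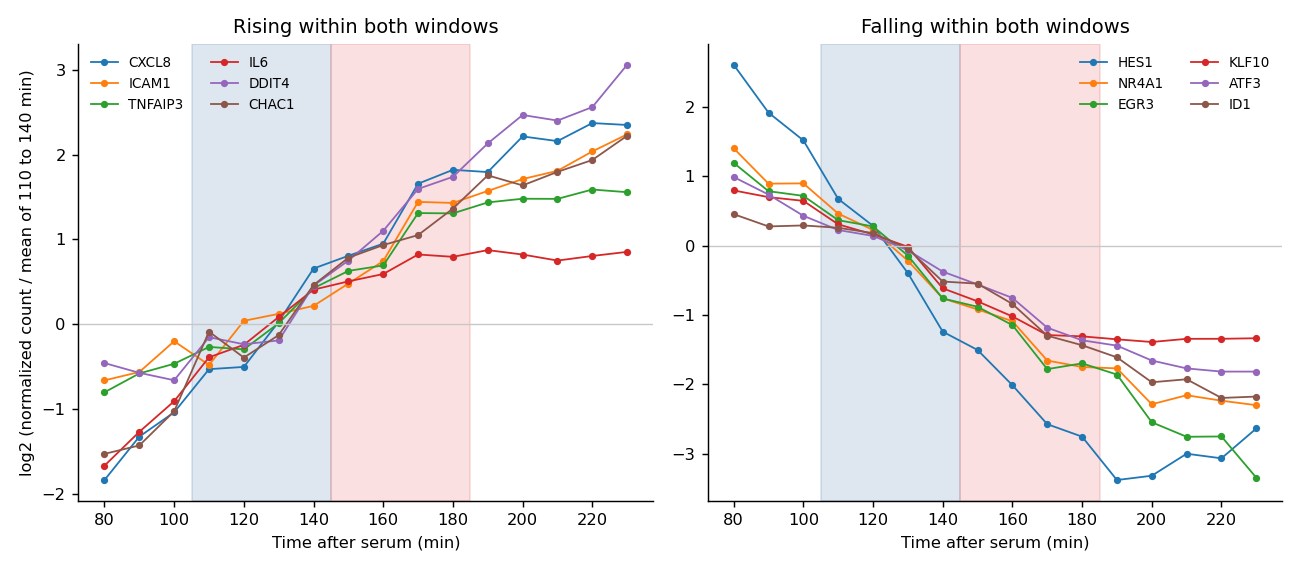
Each line is 1 gene from 80 to 230 min after serum, drawn as the log2 of its normalized count over its own mean at 110 to 140 min, for 6 genes with a climbing and 6 with a dropping level (blue band, 110 to 140 min; red band, 150 to 180 min). None of the 12 passed the first test between windows, in which the slope within each window counts as spread, and HES1 has the lowest later values, with a log2 change of −2.05.

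Genes of growth arrest had the most falls of any list by number, where 0.513% of all genes tested were lower, and 4.29% with the drift taken out. Of 26 such genes and FOXO targets tested, 4 were lower and 0 higher, with a median log2 change of −0.20, and with the drift taken out 13 were lower and 2 higher. Beside CCNG2 they were YPEL2, with −0.59 (SE 0.10), TP53INP1, a p53 target that promotes autophagy and cell death, with −0.49 (SE 0.08), and KLHL24, a substrate adaptor of a ubiquitin ligase. KLHL24 had 2221, 2230.3, 2157 and 2034 and then 1734, 1738, 1442 and 1390.0, a change of −0.45 (SE 0.07, adjusted p = 0.0041). TXNIP, which restrains glucose uptake and binds thioredoxin, had 1422, 1423, 1109 and 768 and then 724, 603, 470.0 and 488, a change of −1.03 (SE 0.25, adjusted p = 0.07, and 6.7e-05 with the drift taken out). PDK4, which shuts off the pyruvate dehydrogenase complex, was low, between 9.79 and 60.02 normalized counts, with a log2 change of −1.55 (SE 0.34, adjusted p = 0.022, and 5.4e-07 with the drift taken out). Of 22 p53 targets, TP53INP1 fell and GADD45A rose. Of 22 regulators of G protein and cAMP signalling, 2 fell, among them the phosphodiesterase PDE4D with a change of −0.21 (SE 0.04), and none rose. Of 20 circadian clock genes none passed, and PER1, which serum induces early, had 273, 247, 185 and 136 and then 128, 105, 65.1 and 58.7, a change of −1.17 (SE 0.32, adjusted p = 0.086, and 9.8e-12 with the drift taken out).

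Early genes that rise a second time were sought by their own course. A gene counted as early when its mean at 20 to 40 or at 50 to 70 min was at least 2-fold that at 0 and 10 min and at least 50 normalized counts, and as fallen when its mean at 80 to 100 min was lower than that peak by at least 1.5-fold. There were 350 early genes, and 40 of them had fallen. Of these 40, 1 passed the test upward and 1 downward, where 0.800% and 0.513% of all genes tested did. A change above 0 was seen in 19, and the median was −0.02. All later values lay above all earlier ones in 7 and below them in 6, as they did in 6.12% and 7.09% of all genes tested. With the drift taken out 8 were higher and 4 lower, beside 6.04% and 4.29% of all genes tested. At an adjusted p below 0.05 in the first test 4 were higher and 2 lower. The shares of 0.800% and 0.513% do not apply at that limit, which more of all genes tested passed. Their counts at 0.05 stand in the last section.

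The gene called was JUN, the AP-1 subunit that pairs with FOS. Its mean fell from 8611 normalized counts at 20 to 40 min to 2783 at 80 to 100 min. JUN then had 3001, 2825, 2806 and 3259 at 110, 120, 130 and 140 min and 3624, 3656, 4433 and 4244 at 150, 160, 170 and 180 min, a log2 change of 0.42 (SE 0.07, adjusted p = 0.0095). It returned from 34.5% of its early peak to 46.3%, and its means were 3972 at 190 to 230 min and 3165 at 350 to 400 min. The call was lost without the 110, 120, 130, 170 or 180 min library, and with the GC value of each library as a covariate. At an adjusted p below 0.05 it was joined by RASD1, a Ras-like protein of G protein signalling, RGS1, which shortens G protein signals, and KLF6, a Krüppel-like factor. RASD1 was low throughout, with 22.6, 16.9, 26.2 and 29.1 and then 39.8, 40.4, 61.6 and 82.5, a change of 1.18 (SE 0.25, adjusted p = 0.014, and 3.5e-06 with the drift taken out). RGS1 had 29.4, 30.5, 28.2 and 45.9 and then 47.4, 54.8, 49.3 and 58.7, a change of 0.62 (SE 0.17, adjusted p = 0.041, and 0.0046 with the drift taken out). KLF6 had 2021, 2036, 2053 and 2549 and then 2465, 2819, 3008 and 2970.2, a change of 0.38 (SE 0.09, adjusted p = 0.04, and 4.1e-07 with the drift taken out), and its 150 min value lay under its 140 min value. Means at 0 and 10 min and at 150 to 180 min were 3555 and 3989 for JUN, 74.1 and 56.1 for RASD1, 47.9 and 52.6 for RGS1 and 1173 and 2816 for KLF6. RASD1 thus rose without regaining its mean at 0 and 10 min, and JUN and RGS1 stood little above theirs. That mean pools the unstimulated culture with 1 already given serum. JUN had 2742 at 0 min and 4369 at 10 min, so its later values lay above the unstimulated one.

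Some others of the 40 had higher values in the later window without reaching that limit, and they are named after their values were seen. NFKBIZ, a nuclear cofactor of NF-kappaB, had 790.4, 748, 896 and 1244 and then 1309, 1446, 1706 and 1688, a change of 0.74 (SE 0.18, adjusted p = 0.073, and 0.00045 with the drift taken out). It came back from 57.3% of its early peak to 95.7%, the highest share of a protein-coding gene among the 40. DUSP6, a phosphatase that inactivates ERK, had fallen to 7.12% of its early peak and had 156, 153, 139.9 and 183 and then 190.1, 255, 378 and 432, a change of 0.95 (SE 0.28, adjusted p = 0.11, and 0.0034 with the drift taken out). Its mean was 314 at 150 to 180 min, under the 546 of 0 and 10 min, then 813 at 290 to 340 min and 709 at 350 to 400 min. DUSP1, which inactivates JNK and p38 as well, had 7619, 7088, 6905 and 7893 and then 8449, 8619.9, 11274 and 11471, a change of 0.43 (SE 0.12, adjusted p = 0.096, and 0.053 with the drift taken out), with most of the rise between the 160 and 170 min libraries. CCNL1, a cyclin of RNA splicing, had overlapping groups and a change of 0.35 (SE 0.11, adjusted p = 0.12, and 1.4e-10 with the drift taken out). Means at 0 and 10 min and at 150 to 180 min were 337 and 1537 for NFKBIZ, 1831 and 9954 for DUSP1 and 2949 and 4955 for CCNL1.

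**Figure D3:**
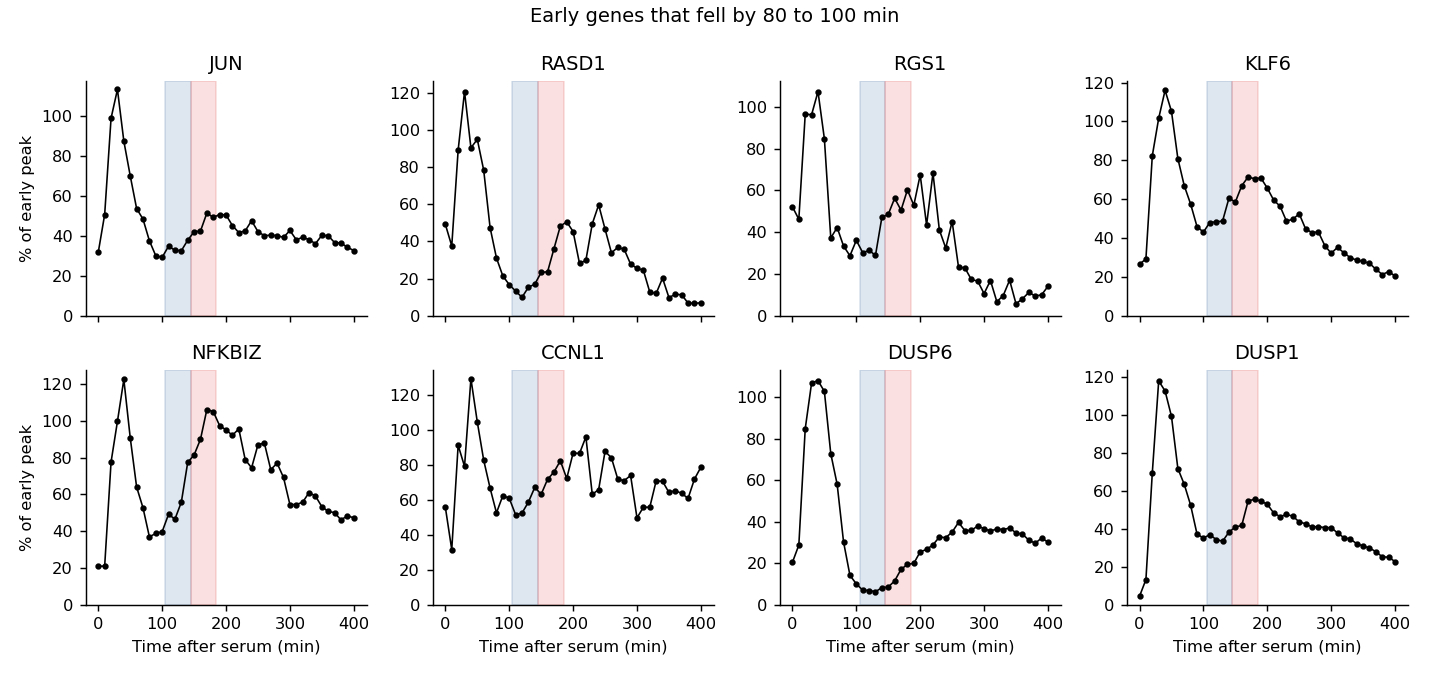
Each panel is 1 early gene over the whole course, with its normalized count in each of 41 libraries as a percentage of its early peak (the higher of its means at 20 to 40 and 50 to 70 min) against minutes after serum. The blue band marks 110 to 140 min and the red band 150 to 180 min. JUN went from 34.5% to 46.3% of its early peak between the bands and NFKBIZ from 57.3% to 95.7%, while DUSP6 went from 7.12% to 14.2%.

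The promoters of JUN, NFKBIZ and DUSP1 are shown as 3 of the 7 early genes in which all later values lay above all earlier ones, of which only JUN passed the first test. They were chosen for the motifs they hold after these were seen, and RASD1, DUSP6, RGS1 and ADAMTSL4-AS1 are not shown. Those of CCL7 and UCN2 are shown because they are large rises with an AP-1 motif. Each is the 250 bases before the RefSeq start on GRCh38.p14, read 5′ to 3′ on the strand of the gene. Capitals mark a match on either strand to the octamer TGACATCA in JUN, to the NF-kappaB motif and the TATA box TATAAA in NFKBIZ, to the core of the cAMP response element TGACGT and the TATA box in DUSP1, to the AP-1 motif TGANTCA and the TATA box in CCL7, and to the AP-1 motif in UCN2. The matches to TGACGT in DUSP1 at 125 and 123 bases before the start overlap, as the motif on one strand and its reverse complement on the other. Matching letters describe the sequence and do not show that a factor binds there.
JUN (chr1:58784048-58784297, minus strand): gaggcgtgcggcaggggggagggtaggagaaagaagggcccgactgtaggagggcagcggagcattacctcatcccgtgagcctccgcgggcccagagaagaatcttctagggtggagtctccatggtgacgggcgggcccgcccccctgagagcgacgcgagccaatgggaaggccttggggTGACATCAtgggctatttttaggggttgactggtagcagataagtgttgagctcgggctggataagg
NFKBIZ (chr3:101827740-101827989, plus strand): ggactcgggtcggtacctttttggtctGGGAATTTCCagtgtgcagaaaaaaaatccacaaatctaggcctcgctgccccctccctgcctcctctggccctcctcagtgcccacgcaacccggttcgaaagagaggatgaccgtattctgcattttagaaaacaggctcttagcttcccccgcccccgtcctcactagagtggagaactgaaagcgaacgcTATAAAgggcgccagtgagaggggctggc
DUSP1 (chr5:172771196-172771445, minus strand): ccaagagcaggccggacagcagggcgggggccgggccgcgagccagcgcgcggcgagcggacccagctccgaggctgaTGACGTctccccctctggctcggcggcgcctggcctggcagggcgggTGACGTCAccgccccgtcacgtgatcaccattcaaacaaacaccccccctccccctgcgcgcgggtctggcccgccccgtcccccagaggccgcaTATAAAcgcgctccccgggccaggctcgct
CCL7 (chr17:34269971-34270220, plus strand): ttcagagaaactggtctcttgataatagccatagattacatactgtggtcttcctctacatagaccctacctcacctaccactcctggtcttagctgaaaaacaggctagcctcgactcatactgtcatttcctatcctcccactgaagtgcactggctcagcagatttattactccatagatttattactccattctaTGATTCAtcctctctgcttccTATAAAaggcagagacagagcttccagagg
UCN2 (chr3:48563782-48564031, minus strand): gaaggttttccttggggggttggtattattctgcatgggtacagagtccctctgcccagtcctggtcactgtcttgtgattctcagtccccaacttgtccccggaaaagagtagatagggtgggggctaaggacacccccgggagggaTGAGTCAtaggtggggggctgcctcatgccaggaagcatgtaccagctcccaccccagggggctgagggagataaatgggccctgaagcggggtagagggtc

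Over the 300 bases from 250 before to 50 after the start, 121 of the 173 rising genes and 89 of the 111 falling ones had a promoter in RefSeq's set of 27305. The E-box CACGTG, the letters that MYC and related factors read, was in 19 of 121 promoters of rising genes (15.7%) and 15 of 89 of falling ones (16.9%), against 9.83% of tested genes and 7.43% of all. It was in 11 of 33 promoters of the ribosome biogenesis list (33.3%). Of the other motifs taken up below, that list held the TEAD motif in 7, TGACGT in 5, and the EGR motif, the NF-kappaB motif and the TATA box in 1 each. AP-1, TGACATCA and the CArG box were in 0 of its promoters. The EGR motif GCGGGGGCG was in 16.5% of rising and 8.99% of falling genes, against 7.93% of tested genes and 5.02% of all promoters, and the motif holds G and C alone. The shares in rising, falling, tested and all promoters were 8.26%, 7.87%, 5.04% and 7.76% for the AP-1 motif, 1.65%, 2.25%, 1.71% and 2.71% for TGACATCA, 8.26%, 12.4%, 11.5% and 8.32% for TGACGT, and 1.65%, 2.25%, 2.13% and 1.92% for the NF-kappaB motif. They were 9.92%, 11.2%, 11.02% and 14.05% for the TEAD motif GGAATG, 1.65%, 1.12%, 1.09% and 1.29% for the CArG box that SRF binds, and 9.92%, 8.99%, 6.46% and 11.95% for the TATA box. Of the 21 promoters of the early genes that had fallen, 7 held TGACGT (33.3%), 4 the TATA box (19.05%) and 3 TGACATCA (14.3%), against 11.5%, 6.46% and 1.71% of tested genes. The TEAD motif was in 4 (19.05%) and the E-box and the EGR motif in 2 each (9.52%), against 11.02%, 9.83% and 7.93% of tested genes. AP-1, the NF-kappaB motif and the CArG box were in 1 each (4.76%), against 5.04%, 2.13% and 1.09%.

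Other early genes were lower in the later window. Of 27 immediate early transcription factors, JUN and FOSL1 rose, FOSL1 by 0.19 (SE 0.04), and none passed downward, while the list's median was −0.25, the lowest of the lists. The second fit, with the drift taken out, gave 3 higher and 11 lower. HES1, the Notch and serum target that the study follows, had 978, 747, 466 and 259.6 and then 216, 152, 103 and 90.9. This was the lowest change of all list members, −2.05 (SE 0.51, adjusted p = 0.075, and 1.0e-15 with the drift taken out). NR4A1, an orphan nuclear receptor, had 2481, 2107, 1548 and 1064 and then 952, 847, 571 and 536, a change of −1.29 (SE 0.33, adjusted p = 0.083, and 6.0e-09 with the drift taken out). KLF10, a factor that TGF-beta induces, had 17343, 15682, 13849.8 and 9149.8 and then 8034, 6908, 5735 and 5661, a change of −1.09 (SE 0.23, adjusted p = 0.048, and 0.0014 with the drift taken out). ATF3 had a log2 change of −0.92 (SE 0.22, adjusted p = 0.07, and 2.3e-11 with the drift taken out) and EGR3 one of −1.29 (SE 0.33, adjusted p = 0.078, and 9.8e-10 with the drift taken out). In these 5 genes the groups did not overlap. FOSB, which the study also follows, had 3107, 3045, 2409 and 1992 and then 1994, 1743, 1279 and 1134, with an overlap of 140 and 150 min and a change of −0.77 (SE 0.23, adjusted p = 0.12, and 3.4e-10 with the drift taken out). FOS had come down to 0.987% of its early peak before the step, and its change was −0.25 (SE 0.15, adjusted p = 0.36).

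A further 27 early genes had fallen by 110 to 140 min but not by 80 to 100 min. Of these 0 were called higher and 3 lower, where 0.800% and 0.513% of all genes tested were. A change above 0 was seen in 5 (median −0.49). All later values lay below all earlier ones in 15 and above them in 1, against 7.09% and 6.12% of all genes tested. With the drift taken out 16 were lower and 1 higher, against 4.29% and 6.04%. Their fall was measured in the same 4 libraries as the step, so the values are a description. SPRY2, an inhibitor of ERK signalling, was the 1 of them with all later values above all earlier ones. It had 1159.6, 1197, 1126 and 1273 and then 1393, 1609, 1815 and 1900.4, a change of 0.49 (SE 0.09, adjusted p = 0.012, and 1.4e-07 with the drift taken out). SPRY1 of the same family was not an early gene, having dropped from a mean of 953 at 0 and 10 min to 117 at 80 to 100 min. It had 109, 103, 103 and 123 and then 161, 154, 143 and 168, a change of 0.51 (SE 0.10, adjusted p = 0.0069), the 1 call among 18 MAP kinase feedback inhibitors. DUSP4 of that list was lower in each library than in the one before, with a change of −0.65 (SE 0.17, adjusted p = 0.08, and 4.7e-12 with the drift taken out). ZFP36L1, which speeds the decay of AU-rich mRNAs, had 2089, 1970.2, 1899 and 2011 and then 2414, 2498, 2497 and 2646, a change of 0.33 (SE 0.04, adjusted p = 0.00083), and was the 1 call among 15 mRNA decay factors.

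No member was called in the lists of DNA replication genes (24), G2 and mitosis genes (22), G1 cyclins, CDKs and inhibitors (23), replication-dependent histone genes (14), the unfolded protein response (22), cytosolic heat shock genes (22), cholesterol synthesis and SREBP2 targets (23), glucose uptake and glycolysis genes (23), prostaglandin genes (11), serum-induced kinases (16) and mitochondrially encoded mRNAs (13), with the number tested in brackets. With 0.800% of all genes tested called higher and 0.513% lower, lists of this size would often hold no call. The medians of these lists lay between −0.09 and 0.06. With the drift taken out, the serum-induced kinases had 4 higher and 6 lower, the heat shock genes 6 and 2, the G1 list 4 and 0 and the cholesterol list 0 and 4. The prostaglandin genes had 0 and 3, the glucose list 2 and 2, the unfolded protein response 1 and 2, and the mitosis and histone lists 0 and 2 each. None of the DNA replication genes or mitochondrially encoded mRNAs passed with the drift taken out either. The changes of the DNA replication genes ran from −0.15 to 0.30. Of 10 genes taken from those the study names for these data (FOS, FOSB, HES1, TGIF1, CCN2, SRF, CACNA1C, DSTN, TPM4 and TGFBI), none was called. Of 49 zinc finger genes of chromosome 19, ZNF331 fell, with a log2 change of −0.45 (SE 0.08) and 34 had a change above 0 (median 0.09).

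**Figure D4:**
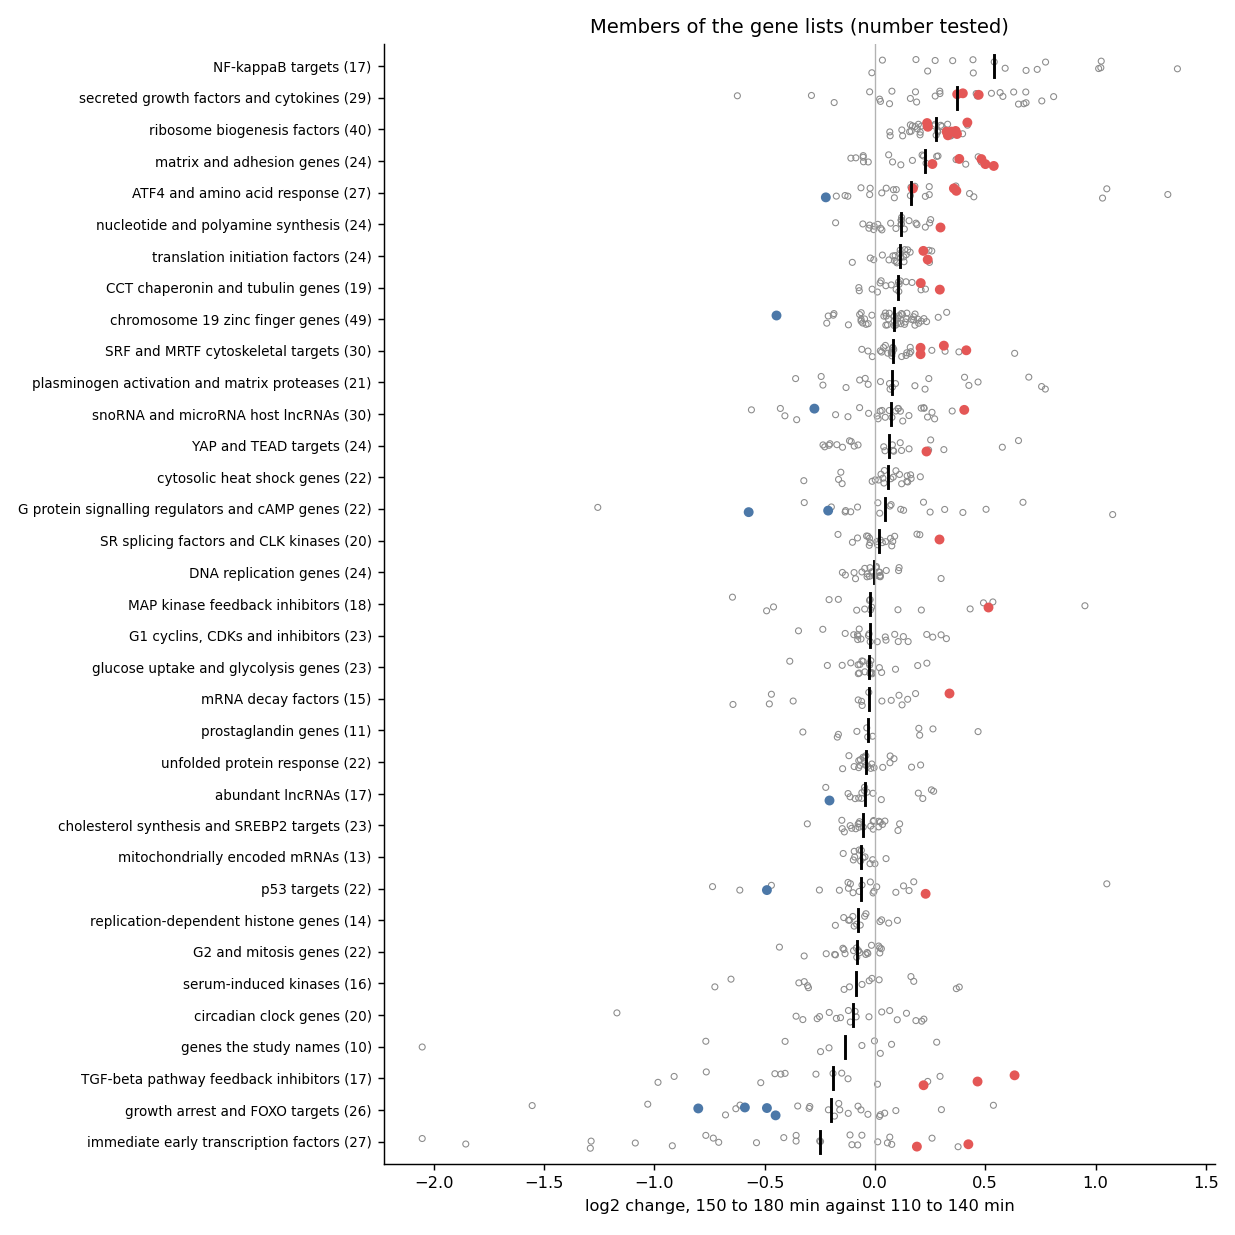
Each point is 1 tested member of a gene list, placed by its log2 change between the windows. Red points passed the test upward, blue points downward and open grey points did not pass. The black tick is the median of the list, from 0.54 for NF-kappaB targets, with no call, to −0.25 for immediate early transcription factors.

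Among lncRNAs with a mean of at least 20 normalized counts, the largest rises were those of ENSG00000093100, ENSG00000253190, MIR31HG, ENSG00000259827 and PKD1P6-NPIPP1. MIR31HG, the host transcript of miR-31 (chromosome 9, 21380073 to 21559891), had 253, 252, 268 and 259.6 and then 310.2, 341, 359 and 362, a log2 change of 0.40 (SE 0.07, adjusted p = 0.0047). ENSG00000253190 had 989.7, 1010.1, 1075 and 898 and then 1386, 1211, 1336 and 1443, a change of 0.44 (SE 0.06, adjusted p = 0.0019), and had stood at a mean of 291 at 0 and 10 min. ENSG00000093100 and ENSG00000259827 changed by 0.55 (SE 0.11) and 0.35 (SE 0.06). PKD1P6-NPIPP1, a read-through of duplicated sequences whose reads can belong to its copies, changed by 0.28 (SE 0.06). The 4 lncRNAs that fell were PSMB8-AS1, ENSG00000284634, LINC-PINT and OIP5-AS1. LINC-PINT, a transcript that p53 induces (chromosome 7, 130791264 to 131110176), had 1411, 1330.4, 1258 and 1236 and then 1099, 1119, 1063 and 1039, a change of −0.27 (SE 0.05, adjusted p = 0.0056). OIP5-AS1, an abundant cytoplasmic lncRNA, had 3208, 3215, 3254 and 3036 and then 2750.1, 2719.7, 2811 and 2729.7, a change of −0.21 (SE 0.04, adjusted p = 0.0052). PSMB8-AS1 and ENSG00000284634 changed by −0.51 (SE 0.09) and −0.43 (SE 0.09). MIR31HG and LINC-PINT were the calls among 30 host lncRNAs of snoRNAs and microRNAs (median 0.07), and OIP5-AS1 the call among 17 abundant lncRNAs (median −0.05). Counts were made by strand, and a read that overlapped several genes of 1 strand was counted for each.

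A jump between 140 and 150 min was sought apart from any steady trend, by fitting 1 straight line in time to the 8 libraries with an offset for the later window. The offset passed upward for 27 genes (0.125% of those tested) and downward for 47 (0.217%), and the counts were 12 and 490 with size factors from the spike-ins. The 47 were all protein-coding. They had a median GC content of 36.4% and 16 exons. None of the 47, and 2 of the 27, were called in the same direction between the windows. The 27 comprised 11 protein-coding genes, with a median GC content of 63.5%, 2 lncRNAs and 14 genes of other kinds. DNAJB4, a cofactor of heat shock protein 70, had 3037, 3451, 3684 and 4188 at 110 to 140 min and 3386, 3696, 4138 and 4696 at 150 to 180 min, an offset of −0.47 (SE 0.06, adjusted p = 6.9e-05). It rose within each window and dropped between 140 and 150 min. IFT74, LRRC40, DNAJB14 and ZFYVE16 had the other large negative offsets, from −0.62 to −0.46. RNY1, a small RNA of Ro particles, ran the other way with 989.7, 943, 923 and 709 and 1465, 1137, 1171 and 961, an offset of 1.07 (SE 0.11, adjusted p = 2.6e-05). The processed pseudogenes ENSG00000228981 and RPS2P7 had offsets of 1.26 and 1.04, and reads of their parent genes are counted for them too. ENSG00000259932 had 0.80 and ENSG00000270066 0.69, the latter with the same counts as the small RNA SCARNA2 inside it.

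The medians of the 2 sets moved in opposite directions between each pair of neighbouring libraries. Both sets were chosen by the sign of their offset in these 8 libraries, so their opposite moves between 140 and 150 min follow from that choice. The line and the offset were fitted together, so the choice also favours opposite slopes within the windows. Relative to the mean of the 8 libraries, the median log2 value of the 47 was −0.23, −0.09, 0.08 and 0.15 at 110 to 140 min and −0.10, −0.03, 0.02 and 0.15 at 150 to 180 min. That of the 27 was 0.03, −0.05, −0.13 and −0.26 at 110 to 140 min and 0.22, 0.11, 0.06 and −0.06 at 150 to 180 min. The GC value of the libraries took the same order as the 47 within the earlier window, dropped between 140 and 150 min and rose to 170 min. The part that GC content has in these offsets was not tested.

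**Figure D5:**
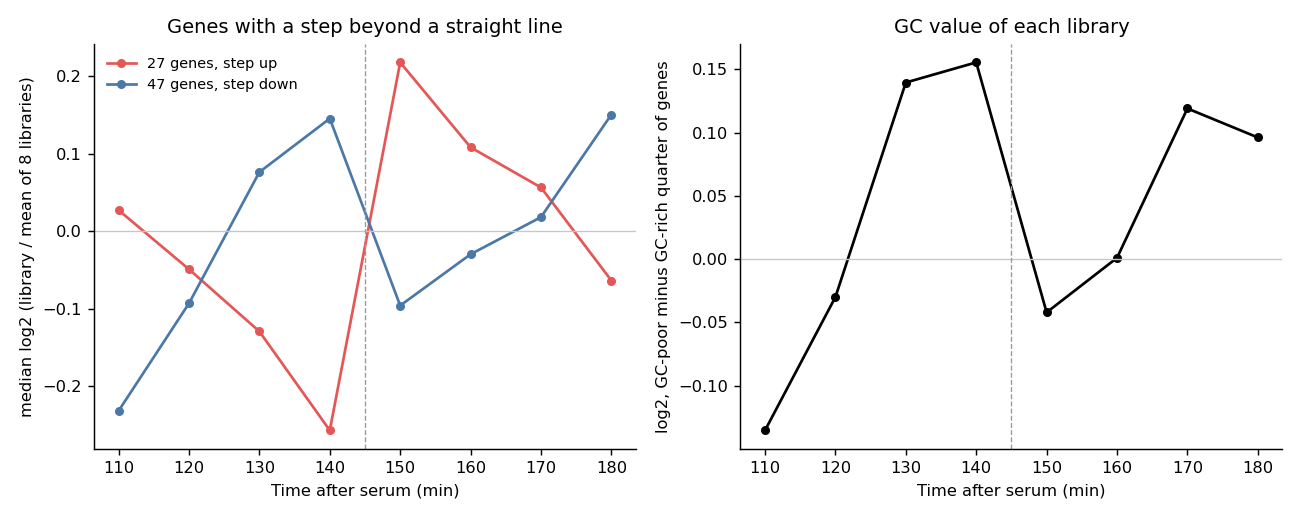
Left, the median log2 value of the genes with an offset from a straight line in time, 27 upward (red) and 47 downward (blue), in each of the 8 libraries relative to their mean. Right, the GC value of each library, the median log2 level of the GC-poorest 25% of protein-coding genes minus that of the GC-richest. Between 140 and 150 min the 47 genes and the GC value drop and the 27 genes rise. Both sets of genes were chosen for their offset there in these same libraries.

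Whether the step differed from the preceding one was tested with the 3 libraries at 80, 90 and 100 min added, as the change from 110 to 140 to 150 to 180 min less the change from 80 to 100 to 110 to 140 min. Both changes share the 4 libraries at 110 to 140 min. The difference passed for 0 genes in edgeR, with 1006 at an unadjusted p below 0.05 and 0.604 as the smallest adjusted p, and for 0 in DESeq2, with 684 at an unadjusted p below 0.05. By this test no gene was shown to change more between these windows than between the preceding ones. The makeup of the libraries did not differ beyond its spread. Protein-coding genes changed from 54.2% ± 1.671 to 55.5% ± 1.249 of the counts (SD, n = 4, exact permutation test, two-sided, p = 0.29), 7SL RNA from 12.4% ± 0.5961 to 11.7% ± 0.6099 (exact permutation p = 0.2) and the spike-ins from 1.57% ± 0.1813 to 1.48% ± 0.129 (exact permutation p = 0.43). Over the 7 shares tested the smallest adjusted p was 0.67, and 4 libraries against 4 can give no p under 0.029. With size factors from the spike-ins, which scatter more, every gene moved up by about 0.10 on the log2 scale, and 157 genes were higher and 65 lower.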

How the data were processed

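Total RNA of the T98G cultures was depleted of rRNA, sequenced with strand kept and, per the labels and the study's methods, trimmed with cutadapt 1.11, aligned to GRCh38 with STAR 2.5.2a and counted over GENCODE exons with featureCounts. In the authors' counts, multi-mapped reads and reads over overlapping genes go to each gene concerned, so pseudogenes and close copies share reads. The deposited table holds these counts for 58721 genes and 77 spike-in sequences, and the authors' DESeq2 1.24.0 size factors, read from the ratio of counts to deposited normalized values, were used to scale them. A normalized count is a deposited count divided by its size factor, and the deposited normalized signal is on that scale. Levels are not corrected for gene length.

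A gene was kept if 1 library held more than 10 counts of it and 3 neighbouring time points more than 2 each (21629 genes). Each comparison was fitted with edgeR 4.0.16 in R 4.3.3 (quasi-likelihood, robust, over the 4 and 4 libraries) and called at a Benjamini-Hochberg adjusted p below 0.01. DESeq2 1.42.0, other scalings (TMM, spike-ins, library totals), other filters, windows or a spline over 41 libraries, and leaving out each library were alternatives, and the fits with drift taken out and with a GC value were added after the data were seen. The fits were tested on simulated data. Transcript GC content and gene lengths come from GENCODE 44, and promoters from RefSeq.

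Named were the top 10 protein-coding genes in each direction by size of change (mean of at least 100), the 5 lncRNAs each way (mean of at least 20), up to 4 called members of each list each way, early genes that rose a second time, the 5 largest offsets from a line each way and 10 genes the study names. Of the genes this rule names, 2 are not reported here. Others were chosen after their values were seen, as were the remaining calls of a list. The windows, 35 gene lists and 2 marker lists were chosen with earlier results of these data known.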

Additional observations from a re-analysis of the deposited data

Results flagged for a closer look

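In 6 of 184 checks, 1 library of a window stood apart from the other 3 of that window by Dixon's criterion for 4 values, and chance marks about 1 group in 20. CACNA1C had 453 normalized counts at 120 min and between 427 and 430.3 in the rest of its window. ENSG00000093100 had 176 at 140 min and between 150.0 and 154 in the rest. RPS2P7 had 90.0 at 140 min and between 134 and 142 in the rest. ENSG00000228981 had 144 at 150 min and between 117 and 118 in the rest, and TGFBI had 94017 at 150 min and between 101629 and 102807 in the rest. FAM86B1 had 241 at 180 min and between 201 and 206 in the rest.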

How the results depend on the processing

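Against 173 genes higher and 111 lower, the counts were 330 and 192 with windows over 41 libraries, 533 and 356 with DESeq2, 1159 and 782 with the GC value, 859 and 534 without a filter, 1782 and 1519 with a spline, 1306 and 927 with the drift taken out and 719 and 575 at an adjusted p below 0.05. They were 157 and 65 with spike-in size factors, and ran from 9 to 632 and from 3 to 380 over the libraries left out. Of the 284 calls, 280 remained with TMM, 283 with DESeq2, 234 with library totals and 69 with spike-in size factors. Offsets from a line, 27 up and 47 down, became 166 and 254 without a filter, 132 and 224 at 0.05 and 12 and 490 with spike-ins, with 76 down in DESeq2, and ran from 1 to 61 and from 6 to 83 over the libraries left out. Without a filter 1 gene lay above and 3 below the preceding step. The second rise, 1 gene, became 3 with spike-ins, 8 with the drift taken out, 4 at 0.05, 0 with an early rise of at least 3-fold, and 0 to 5 over the libraries left out. Members of the lists, 39 higher and 10 lower of 757, became 118 and 53 with DESeq2, 241 and 97 with a spline, 204 and 88 with the drift taken out and, with spike-ins, 20 lower, and ran from 4 to 115 and from 0 to 43 over the libraries left out. Counting 1.5-fold as raised or lowered before the step gave 64 raised genes higher, 19 raised genes lower and 1 lowered gene lower. Of 1190 values of 85 named genes, 769 kept direction and side of the threshold, 371 lost their call, 36 gained one and 14 changed sign. The sign changed with spike-ins for CACNA1C (0.0917), DNAJB14 (0.0502) and SRF (0.0362) and with the spline for DNAJB14 (0.0567) and ENSG00000270066 (−0.0685). Over the libraries left out CACNA1C ran from −0.0422 to 0.0279, DNAJB14 from −0.119 to 0.0260 and LRRC40 from −0.0817 to 0.0997. The cause was not tested. No paired analysis was possible because the time points carry no replicate numbers. With 1 library per time point, variation between cultures and drift with time cannot be told apart.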
